A study of Mus musculus with 36 samples.

Results

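Pre-osteoclasts labelled cKO were compared with pre-osteoclasts labelled cWT after 3 days of RANKL. The comparison rests on 6 of the 36 RNA-seq libraries of the series, 3 labelled cKO and 3 labelled cWT. Of 24950 genes with a value, 10817 reached 1 RPKM (reads divided by gene length and library depth) in at least 3 of these 6 libraries and were tested. The cells were bone marrow-derived macrophages of C57BL/6 mice (their tissue label says monocytes), and the day 3 samples had been given RANKL at 40 ng/ml with M-CSF at 20 ng/ml. At day 0 the cells had received M-CSF without RANKL, at a dose the labels do not give for that day, and 3 libraries of each label from that day are used further on. A second pair of genotypes, gWT and gKO, was treated in the same way and is set beside the c pair at day 3. The labels do not spell out what the letters g and c stand for, which part of the Irf8 gene was altered, or whether a Cre line was used. They give no animal behind each library, so p-values measure the spread between libraries of a group, which may be technical. Male and female mice were used in the study, per the series text.

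Osteoclasts are multinucleated cells of the monocyte lineage that dissolve bone. M-CSF keeps their precursors alive and dividing, and RANKL, acting through the receptor RANK, switches on the transcription factors c-Fos and NFATc1, which in turn activate genes for acid secretion, matrix digestion, adhesion and cell fusion. IRF8 is a transcription factor of monocytes, macrophages and dendritic cells. It holds NFATc1 in check in precursor cells, it binds DNA together with partners such as PU.1 at composite elements, and it takes part in the interferon response. Cells at day 3 of RANKL are mononuclear precursors that have started the osteoclast programme and have not yet finished dividing or fusing.

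Irf8 was checked first, and it went against the label. It measured 61.9, 67.5 and 66.7 RPKM in cKO and 5.29, 7.06 and 6.91 in cWT. The groups did not overlap, and the level was higher in the libraries labelled cKO by 3.17 ± 0.12 on the log2 scale (SE of limma, a linear model with moderated variances; adjusted p = 1.32e-19). The authors' deposited table gives an Irf8 ratio of 10.1 between these groups. A gene-level value also counts reads outside a deleted part, so it does not show whether IRF8 protein was present. The groups are therefore called the libraries labelled cKO and cWT, and every direction below is one between those labels. Log2 changes are those of RPKM + 1, which draws the change of low genes toward 0.

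Library names set a limit on the whole comparison. The 3 libraries labelled cKO have names starting with t and the 3 labelled cWT names starting with s, while the table was assembled from 3 data sets, per its header, and the meaning of the letters is not stated. Genotype and name letter therefore cannot be told apart from the day 3 libraries alone. Depth differed in the same way, with 35095662 to 40683667 alignments in the cKO libraries and 68076086 to 74756167 in the cWT libraries. The letter could be entered as a term only because the day 6 libraries labelled cWT include both letters, and the estimate then rests on 3 libraries. With it, 6349 genes were called against 8587 without it, and standard errors grew by a median factor of 1.79. Of the genes at least 2-fold higher without the term, 597 of 610 were called in the same direction with it, and of those at least 2-fold lower 777 of 793. Within a group, libraries correlated at r = 0.990 to 0.998 over genes on the log2 scale, and between groups at 0.913 to 0.941. Xist was expressed in all 6 libraries, at 44.1 to 47.2 RPKM in cKO and 22.1 to 36.2 in cWT. It was called higher in cKO (0.60 ± 0.14, adjusted p = 0.00036), a call lost with the letter term (0.066, adjusted p = 0.824). Eif2s3y and Kdm5d of the Y chromosome were listed at 0.

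RANKL-treated cells with the 2 labels differed over most of the transcriptome. At an adjusted p under 0.05, 79.4% of the tested genes were called, with 32.4% higher and 47.0% lower in the libraries labelled cKO, and in 79.0% the 3 and 3 libraries did not overlap. Most of these changes were small. The called genes at least 2-fold higher made up 5.64% of those tested, and those at least 2-fold lower 7.33%. The median log2 change of all tested genes was -0.10, and it was -0.02 after quantile scaling. Counts of list members called are best read against these shares, and the 2-fold counts separate lists more than calls do. The largest rises were Saa3, F13a1, Chil3, Hp, Ms4a4a, Adgre4, Fpr1, Ly6c2, Fn1, Ctsg, Irf8 and Fpr2. The largest falls were Pgf, Hist1h2ak, Ccnd1, Cd207, H2-Q7, Olfml3, Col18a1, D17H6S56E-5, Mycl, Crip1, Axl and Folr2.

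**Figure D1:**
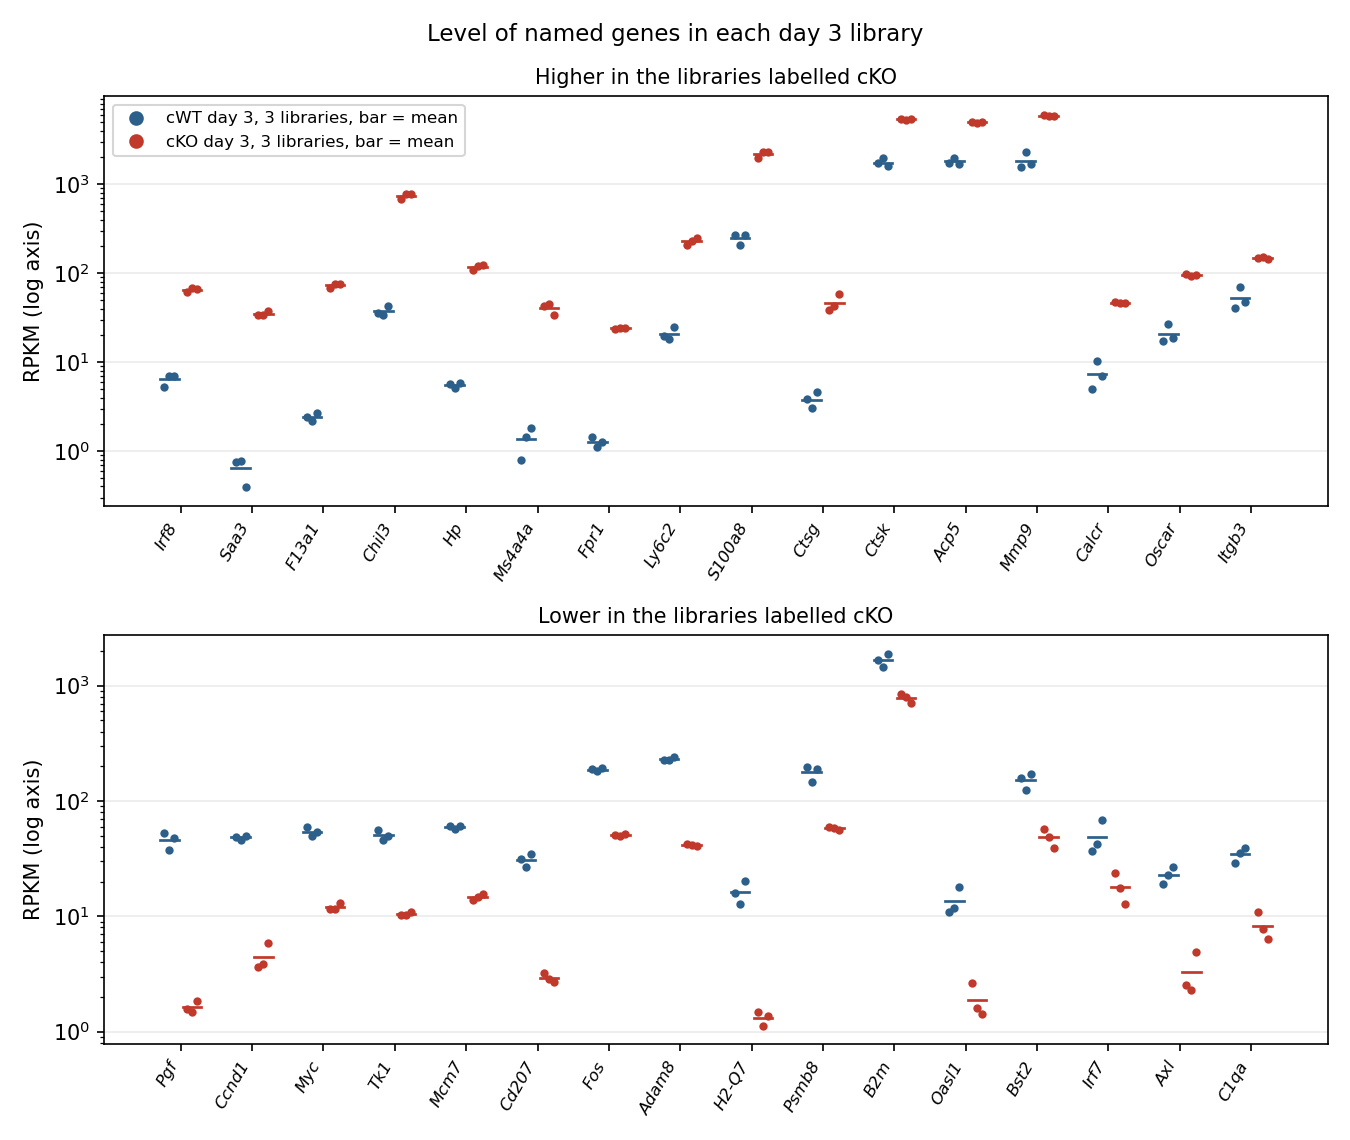
RPKM of 32 named genes in each day 3 library on a log axis, with 3 points and a bar at the mean for each label. In every gene shown the 3 libraries labelled cKO lie on one side of the 3 labelled cWT, from Saa3 at under 1 RPKM in cWT and over 33 in cKO to Pgf at over 37 in cWT and under 2 in cKO. For the largest rises and falls this was a condition of the ranking.

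The largest rise, and most of the monocyte genes listed, were higher in the libraries labelled cKO. Saa3, which encodes an acute-phase serum amyloid and stands in no list, measured 33.6, 34.1 and 37.7 RPKM in cKO and 0.760, 0.777 and 0.395 in cWT. F13a1, the coagulation factor XIII subunit made by monocytes, measured 68.4, 76.3 and 76.5 RPKM in cKO and 2.43, 2.18 and 2.65 in cWT. Ms4a4a, a tetraspan membrane protein of macrophages, measured 42.5, 44.6 and 34.05 RPKM in cKO and 0.794, 1.45 and 1.81 in cWT. The log2 changes of the 3 genes were 4.46 ± 0.36, 4.45 ± 0.11 and 4.15 ± 0.21 (SE, adjusted p from 5.01e-23 for F13a1 to 1.01e-11 for Saa3). The ranking of largest changes took only genes without overlap between the labels.

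Classical monocyte receptors and surface genes followed. Ly6c2, the surface marker of inflammatory monocytes, measured 205, 233 and 249 RPKM in cKO and 19.5, 18.1 and 24.7 in cWT (log2 change 3.41). Ccr2, the receptor that brings these cells out of the bone marrow, measured 26.9, 28.2 and 24.9 RPKM in cKO and 2.87, 4.61 and 5.12 in cWT (2.44). Cx3cr1, the fractalkine receptor, measured 17.9, 19.98 and 19.2 RPKM in cKO and 2.63, 3.82 and 4.26 in cWT (2.15). All 3 were several times higher in each cKO library than in any cWT library. Of 26 tested monocyte genes 19 were called higher, 17 of them at least 2-fold, and 5 were called lower, with a median log2 change of 1.56. The summed level of the list overlapped between the labels, at 1926 to 2574 RPKM in cWT and 2299 to 2469 in cKO. Plac8 (log2 change 2.53) and the orphan nuclear receptor gene Nr4a1 (1.94) were among those that rose. The members that fell at least 2-fold were the calcium-binding genes S100a4 (-1.48) and S100a6 (-1.24) and Ly86 (-1.87), a partner of a Toll-like receptor homologue. Among chemokine and formyl peptide receptors 7 of 11 were called higher and 3 lower. Fpr1 and Fpr2, receptors for bacterial formyl peptides, rose by 3.47 ± 0.11 and 3.16 ± 0.13.

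Granule genes of neutrophils and their precursors rose with the monocyte genes. S100a8, a subunit of calprotectin, measured 1989, 2310 and 2319 RPKM in cKO and 270.4, 205 and 269 in cWT, a log2 change of 3.15 ± 0.20 with no overlap. Chil3, a chitinase-like lectin, measured 674, 768 and 776 RPKM in cKO and 35.3, 33.8 and 42.3 in cWT (4.28 ± 0.16). Elane, the neutrophil elastase gene, measured 62.2, 71.01 and 89.2 RPKM in cKO and 11.1, 8.44 and 12.1 in cWT (2.70 ± 0.15). The same side held for 22 of 23 tested granule genes, 18 of them at least 2-fold, with a median of 2.02. Retnlg was the member not called. Summed over the 24 listed genes that have a value, the level was 895 to 1141 RPKM in the cWT libraries and 5954 to 6877 in the cKO libraries. Ly6g, the antigen used to sort neutrophils, was near the detection limit at 1.38, 2.49 and 1.91 RPKM in cKO and 0.648, 0.400 and 0.875 in cWT. In bulk RNA fewer cells of a type and less RNA per cell cannot be told apart, and the part of granule-bearing cells in the monocyte result was not tested. Chil3, Csf3r, Cxcr2 and Cd177 stand both in this list and in another.

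The promoters of the 3 largest rises and the 3 largest falls with a window in the RefSeq table are shown because IRF proteins bind GAAA repeats, and the letters can be read beside the changes. They span 250 bases before to 50 after the transcription start in RefSeq (GRCm38.p6), 5′ to 3′ on the gene's strand. Capitals mark GAAANNGAAA, the core of the interferon-stimulated response element, or GGAANNGAAA, the PU.1 and IRF composite element, on either strand. For rises these are Saa3 at chr7:46715627-46715926 (minus strand), F13a1 at chr13:37050195-37050494 (minus strand) and Chil3 at chr3:106167515-106167814 (minus strand).
Saa3: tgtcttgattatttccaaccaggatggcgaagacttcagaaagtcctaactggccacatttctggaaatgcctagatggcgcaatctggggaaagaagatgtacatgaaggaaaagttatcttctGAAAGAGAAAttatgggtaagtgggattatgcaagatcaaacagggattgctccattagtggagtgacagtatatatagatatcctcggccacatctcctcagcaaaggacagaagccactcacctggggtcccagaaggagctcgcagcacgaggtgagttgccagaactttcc
F13a1: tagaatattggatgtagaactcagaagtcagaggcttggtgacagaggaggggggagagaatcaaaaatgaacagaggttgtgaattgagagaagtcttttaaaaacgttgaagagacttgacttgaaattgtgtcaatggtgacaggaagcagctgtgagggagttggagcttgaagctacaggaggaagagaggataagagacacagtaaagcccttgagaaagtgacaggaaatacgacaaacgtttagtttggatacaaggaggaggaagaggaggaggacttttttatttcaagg
Chil3: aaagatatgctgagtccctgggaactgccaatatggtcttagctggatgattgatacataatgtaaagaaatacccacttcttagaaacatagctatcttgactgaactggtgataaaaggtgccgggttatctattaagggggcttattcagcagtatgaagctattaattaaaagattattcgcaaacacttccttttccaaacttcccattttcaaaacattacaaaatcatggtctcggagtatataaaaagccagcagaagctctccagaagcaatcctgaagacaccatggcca
For falls they are Pgf at chr12:85177264-85177563 (minus strand), Cd207 at chr6:83677808-83678107 (minus strand) and H2-Q7 at chr17:35438905-35439204 (plus strand).
Pgf: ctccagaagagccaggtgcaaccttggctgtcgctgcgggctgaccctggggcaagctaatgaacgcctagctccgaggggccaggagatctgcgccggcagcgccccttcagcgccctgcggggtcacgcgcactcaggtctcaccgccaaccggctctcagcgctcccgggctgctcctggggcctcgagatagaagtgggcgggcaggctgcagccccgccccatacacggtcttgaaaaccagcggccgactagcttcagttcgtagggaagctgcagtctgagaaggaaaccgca
Cd207: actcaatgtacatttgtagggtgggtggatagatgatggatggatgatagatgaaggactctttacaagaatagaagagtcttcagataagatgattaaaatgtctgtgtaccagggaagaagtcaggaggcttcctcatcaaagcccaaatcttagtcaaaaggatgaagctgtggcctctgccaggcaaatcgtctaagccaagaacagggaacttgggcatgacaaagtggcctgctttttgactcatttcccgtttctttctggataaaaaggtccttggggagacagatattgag
H2-Q7: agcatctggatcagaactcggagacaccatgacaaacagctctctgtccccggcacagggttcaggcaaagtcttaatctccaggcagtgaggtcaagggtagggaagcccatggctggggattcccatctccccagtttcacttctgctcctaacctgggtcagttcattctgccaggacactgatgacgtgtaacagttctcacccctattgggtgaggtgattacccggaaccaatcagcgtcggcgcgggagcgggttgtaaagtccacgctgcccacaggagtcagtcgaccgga
Only the Saa3 window holds a match, 1 of the first kind. GAAANNGAAA occurred in 3.49% of 27025 RefSeq promoter windows, in 3.28% of 8560 windows of tested genes, in 5.37% of 447 windows of genes at least 2-fold higher and in 4.37% of 595 windows of genes at least 2-fold lower. GGAANNGAAA occurred in 2.79%, 2.43%, 3.58% and 1.85% of the same windows. These shares describe letters and not binding.

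Osteoclast effector genes were higher in the libraries labelled cKO. Ctsk, the collagen-degrading cathepsin K, measured 5385, 5337 and 5474 RPKM in cKO and 1713, 1952 and 1588 in cWT. Acp5, tartrate-resistant acid phosphatase, measured 5032, 4892 and 5005 RPKM in cKO and 1744, 1986 and 1690 in cWT. Mmp9, a gelatinase, measured 5988, 5922 and 5859 RPKM in cKO and 1552, 2286 and 1700 in cWT. Each cKO library exceeded every cWT library more than 2-fold, and the log2 changes were 1.63 ± 0.22, 1.47 ± 0.20 and 1.70 ± 0.14 (adjusted p = 8.83e-08, 1.12e-07 and 9.19e-12). Car2, the carbonic anhydrase that supplies protons for acid secretion, rose by 1.75 ± 0.11, and Mmp14 by 0.51 ± 0.11. Adam8, a membrane metalloprotease listed with them, went the other way. It measured 42.5, 41.6 and 40.7 RPKM in cKO and 226, 229 and 239.5 in cWT (-2.45 ± 0.08, adjusted p = 1.36e-20). Mmp12, the macrophage elastase, was not called (0.33 ± 0.19, adjusted p = 0.11), but was called higher without cKO replicate 3 (0.52) or cWT replicate 2 (0.50).

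Markers of late osteoclasts were higher in the libraries labelled cKO. All 16 were called higher, 10 of them at least 2-fold, with a median log2 change of 1.07, and 14 were called with the letter term and 15 with the 6 libraries alone. Calcr, the calcitonin receptor, measured 47.6, 46.3 and 45.7 RPKM in cKO and 4.99, 10.3 and 6.98 in cWT (2.55 ± 0.13). Steap4, a metalloreductase, measured 38.8, 37.5 and 37.8 RPKM in cKO and 4.26, 8.76 and 5.74 in cWT (2.48 ± 0.13). Oscar, an immunoglobulin-like costimulatory receptor, measured 97.1, 93.3 and 94.4 RPKM in cKO and 17.3, 26.7 and 18.9 in cWT (2.15 ± 0.13). In each of the 3 genes cWT replicate 2 was the highest cWT library and still lay under every cKO library. Siglec15, a lectin that signals through DAP12, rose by 2.03 ± 0.15 and Itgb3, the β3 chain of the vitronectin receptor, by 1.51 ± 0.13. Smaller changes were those of Sema4d (0.16) and Gpr55 (0.45).

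Genes of acid transport, adhesion and fusion moved less. Of 35 tested V-ATPase and lysosome genes 25 were called higher and 3 lower, and the median was 0.30. The osteoclast subunit gene Atp6v0d2 measured 491, 486 and 523 RPKM in cKO and 209.8, 262 and 215 in cWT (1.13 ± 0.11), and Atp6v1a, part of the catalytic head, rose by 1.04 ± 0.07. The 3 members that fell were cathepsins of antigen processing and general proteolysis, Ctss (-1.42), Ctsh (-1.08) and Ctsl (-0.99). Among 20 adhesion and sealing zone genes 18 were called higher and 2 lower, and Itgal, Itga2 and Itgb3 rose by 2-fold or more. The number called higher was 13 with the letter term and 15 without cWT replicate 1. Dcstamp and Ocstamp, the membrane proteins needed for cell fusion, rose by 1.11 ± 0.12 and 0.84 ± 0.10. Of 11 fusion genes 7 were called higher and 2 lower, and the lower calls, Cd44 (-0.12) and Cd36 (-0.41), were lost without cWT replicate 2 (adjusted p = 0.128 and 0.115). The call of Cd44 was also lost without cKO replicate 1 or cWT replicate 3, and that of Cd36 without cKO replicate 3.

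The transcription factors behind this programme did not move together. Fos, which RANKL induces early, measured 50.5, 49.97 and 51.9 RPKM in cKO and 188, 181 and 192 in cWT, a fall of 1.86 on the log2 scale (SE 0.05, adjusted p = 5.01e-23). Nfatc1, the central activator, measured 65.4, 66.4 and 70.3 RPKM in cKO and 43.4, 62.7 and 49.1 in cWT and was higher by 0.39 ± 0.08 (adjusted p = 9.46e-05). Its cWT replicate 2 came close to the lowest cKO library, and with the name letter as a term its rise was not called (0.26 ± 0.15, adjusted p = 0.14). Junb fell by 1.29 ± 0.08 and Mitf by 0.75 ± 0.06, while Fosl2 rose by 0.60 ± 0.07 and Ppargc1b by 0.44 ± 0.06. Over 17 activators 5 were called higher and 7 lower, with a median of -0.03 that became 0.17 after quantile scaling. That scaling turned the small differences of Jdp2, Spi1 and Relb to the opposite sign.

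Among 13 tested genes listed as repressors of osteoclast formation 8 were called higher, Irf8 included, and 2 lower. The list also holds Cebpa (0.42 ± 0.12), and whether each member acts as a repressor in these cells was not tested. Klf2, a factor of quiescent myeloid cells, measured 18.5, 20.1 and 17.5 RPKM in cKO and 4.37, 4.54 and 4.88 in cWT (1.81 ± 0.09). Cebpb, which drives inflammatory and monocyte genes, measured 59.3, 61.6 and 56.2 RPKM in cKO and 32.5, 25.6 and 23.7 in cWT (1.10 ± 0.13). Neither overlapped between labels. Rbpj was lower (-0.56 ± 0.06), and Id3 too (-0.71 ± 0.12), a call lost with the letter term (-0.37, adjusted p = 0.129). In the IRF family, Irf4, at 1.77 to 2.44 RPKM in cKO and 0.254 to 0.439 in cWT, rose by 1.14 ± 0.08 and Irf7 fell by 1.39 ± 0.20. Irf5, Irf9, Irf3 and Irf1 were called lower as well, by 1.12, 0.65, 0.49 and 0.34 on the log2 scale, and Irf2 was not called. The call of Irf1 was lost with the letter term (-0.18, adjusted p = 0.277).

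Receptors for the differentiation signals went in both directions. Csf1r, the M-CSF receptor, measured 565, 559.9 and 531 RPKM in cKO and 245, 318 and 276 in cWT, a rise of 0.99 ± 0.06 with no overlap (adjusted p = 2.10e-14). Tnfrsf11a, which encodes RANK, measured 33.1, 32.9 and 33.4 RPKM in cKO and 31.6, 39.97 and 36.4 in cWT, and its groups overlapped (-0.11 ± 0.07, adjusted p = 0.164). It was called lower without cWT replicate 1 (-0.20, adjusted p = 0.0143). Csf3r, the G-CSF receptor of granulocytes, measured 13.2, 14.7 and 13.04 RPKM in cKO and 2.04, 2.74 and 3.15 in cWT (2.02 ± 0.11). Csf2rb2, a β chain of the interleukin-3 receptor, was lower (-0.94 ± 0.08, adjusted p = 6.26e-12). Traf6, which carries the RANK signal, rose by 0.62 ± 0.06, and Syk by 0.52 ± 0.07. Traf2 fell by 0.89 ± 0.06, and Trem2, a DAP12-coupled receptor, by 0.63 ± 0.12, a call lost with the letter term (-0.40, adjusted p = 0.10). Tyrobp, which encodes DAP12, was not called (0.19 ± 0.09, adjusted p = 0.0578) and was called higher after quantile scaling (0.79) and with the letter term (0.47).

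Cell cycle genes were lower in the libraries labelled cKO. Ccnd1, the cyclin D that M-CSF induces, measured 3.64, 3.86 and 5.87 RPKM in cKO and 48.96, 46.1 and 49.7 in cWT (-3.20 ± 0.12, adjusted p = 2.20e-19). Tk1, thymidine kinase, measured 10.3, 10.3 and 10.9 RPKM in cKO and 56.3, 45.7 and 50.04 in cWT (-2.16 ± 0.12). Mcm7, a subunit of the replicative helicase, measured 13.8, 14.6 and 15.5 RPKM in cKO and 61.2, 57.5 and 60.5 in cWT (-1.96 ± 0.09). In each of these genes every cKO library lay below every cWT library, which for Ccnd1 was a condition of the ranking. Of 39 tested cell cycle genes 37 were called lower, 30 of them at least 2-fold, and the median was -1.44. Ccnd3, another cyclin D, was the member called higher (0.72 ± 0.07), and Mki67 was not called (-0.03). The count of 37 stayed the same in each of the alternatives run, with the letter term and without each library in turn included.

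Myc, a transcription factor that promotes growth, was lower as well. It measured 11.6, 11.6 and 13.1 RPKM in cKO and 59.3, 49.5 and 53.7 in cWT (-2.07 ± 0.08). Among 18 genes of serine and one-carbon metabolism 11 were called lower, 5 of them at least 2-fold, and 6 higher, and with the letter term 7 were called lower and 6 higher. Shmt1 and Shmt2, which make one-carbon units from serine, fell by 1.69 and 1.61 on the log2 scale, Psat1 by 1.65 and the amino acid transporter gene Slc7a5 by 1.51. The stress and immediate early list, which holds Myc and Fos, had 10 of 23 called lower and 7 higher, shares near those over all genes. Pgf, a VEGF-family growth factor, was the largest fall of all named genes. It measured 1.56, 1.49 and 1.84 RPKM in cKO and 52.9, 37.4 and 47.9 in cWT (-4.15 ± 0.12, adjusted p = 1.03e-21).

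Antigen presentation through MHC class I was lower over most of its parts. B2m, the invariant light chain, measured 841, 795 and 711 RPKM in cKO and 1661, 1465 and 1891 in cWT (-1.09 ± 0.09). H2-K1, a classical heavy chain, measured 288, 279.6 and 247 RPKM in cKO and 653, 576 and 717 in cWT (-1.25 ± 0.10). Psmb8, an immunoproteasome subunit, measured 59.5, 58.1 and 56.4 RPKM in cKO and 196, 146 and 189 in cWT (-1.58 ± 0.11). The groups did not overlap in any of the 3. Of 29 tested members 19 were called lower and 5 higher, with a median of -0.58. The heavy chain genes of the H2-Q and H2-T clusters are near-identical copies, and how reads that match several of them were counted is not given in the sources used here. Opposite changes such as H2-Q7 (-2.88 ± 0.14) and H2-Q2 (2.12) are uncertain for that reason. MHC class II showed no such shift as a list, with 3 of 8 called higher, 1 of them at least 2-fold, and 3 lower. H2-Eb1 (-0.88 ± 0.14, adjusted p = 2.8e-06) and H2-DMb1 (-0.76 ± 0.09, adjusted p = 8.19e-09) fell without overlap between labels. The calls of H2-Ab1 (-0.35, adjusted p = 0.0349) and H2-DMa (0.29, adjusted p = 0.0189) were lost without cWT replicate 2 (-0.32 and 0.26). The first was also lost without either replicate 3, and the second without cKO replicate 2 or cWT replicate 1.

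Interferon-stimulated genes were split. Oasl1, an antiviral OAS-like protein, measured 2.66, 1.61 and 1.41 RPKM in cKO and 10.9, 11.7 and 17.9 in cWT (-2.32 ± 0.15). Bst2, which tethers enveloped viruses, measured 57.5, 48.6 and 39.4 RPKM in cKO and 158, 124 and 171 in cWT (-1.62 ± 0.13). Ifit3, of the IFIT family that binds foreign RNA, measured 13.1, 10.9 and 6.53 RPKM in cKO and 2.23, 3.91 and 5.58 in cWT and was higher (1.197 ± 0.22, adjusted p = 1.22e-05). Of 54 tested members 29 were called lower, 17 of them at least 2-fold, and 12 higher, 2 of them at least 2-fold (Ifit2 and Ifit3), with a median of -0.31. Isg15, Ifitm3, Ly6e, Ifi35 and Rtp4 fell by 1.31 to 1.55 on the log2 scale, while Rsad2 rose by 0.79. Mx1 (-0.22) was not called. Within a label the libraries were not alike, since cWT replicate 3 held the highest and cKO replicate 3 the lowest value of the label for Oasl1, Irf7, Bst2 and Isg15. In 2 related lists 7 of 13 guanylate-binding and immunity GTPase genes were called lower and 1 higher (Gbp2), and 1 of 9 Ifi200 genes lower (Ifi202b, -1.67) and 3 higher. The higher count of the GTPases was 4 without cWT replicate 3 and 3 without cKO replicate 3. With the letter term 27 of the interferon list were called lower and 7 higher. Leaving out each library in turn gave 26 to 37 called lower and 10 to 14 called higher in that list. Oas1g, Oas1a, Ifitm and Ifi200 genes have close paralogs, with the same limit on read assignment as the MHC genes.

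Promoters holding the response element are shown for a rise and a fall of that list. They are the largest among called members that reach a mean of 5 RPKM under either label and hold a match in the window, and were chosen after the values were seen. They are Ifit3 at chr19:34583279-34583578 (plus strand) and Oas1g at chr5:120887564-120887863 (minus strand), each with 2 matches of GAAANNGAAA on either strand in capitals, which run into each other in Oas1g.
Ifit3: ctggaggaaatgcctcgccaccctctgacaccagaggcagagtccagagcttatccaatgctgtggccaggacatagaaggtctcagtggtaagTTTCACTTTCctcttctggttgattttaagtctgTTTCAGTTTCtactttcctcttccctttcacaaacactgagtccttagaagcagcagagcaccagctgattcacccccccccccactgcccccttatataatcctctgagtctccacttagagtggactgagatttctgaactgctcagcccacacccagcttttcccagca
Oas1g: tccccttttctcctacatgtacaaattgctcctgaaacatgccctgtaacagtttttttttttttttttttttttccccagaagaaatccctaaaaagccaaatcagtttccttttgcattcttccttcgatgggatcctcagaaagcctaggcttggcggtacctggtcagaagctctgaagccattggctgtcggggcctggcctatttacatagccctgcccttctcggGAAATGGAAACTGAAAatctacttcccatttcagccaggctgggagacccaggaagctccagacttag
Oas1g fell by 2.01 on the log2 scale and Ifit3 rose. Their opposite directions follow from choosing the largest rise and the largest fall, and are not a result. Of 44 interferon response genes with a window 22 held the element, among them 7 of 11 called higher and 10 of 21 called lower.

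**Figure D2:**
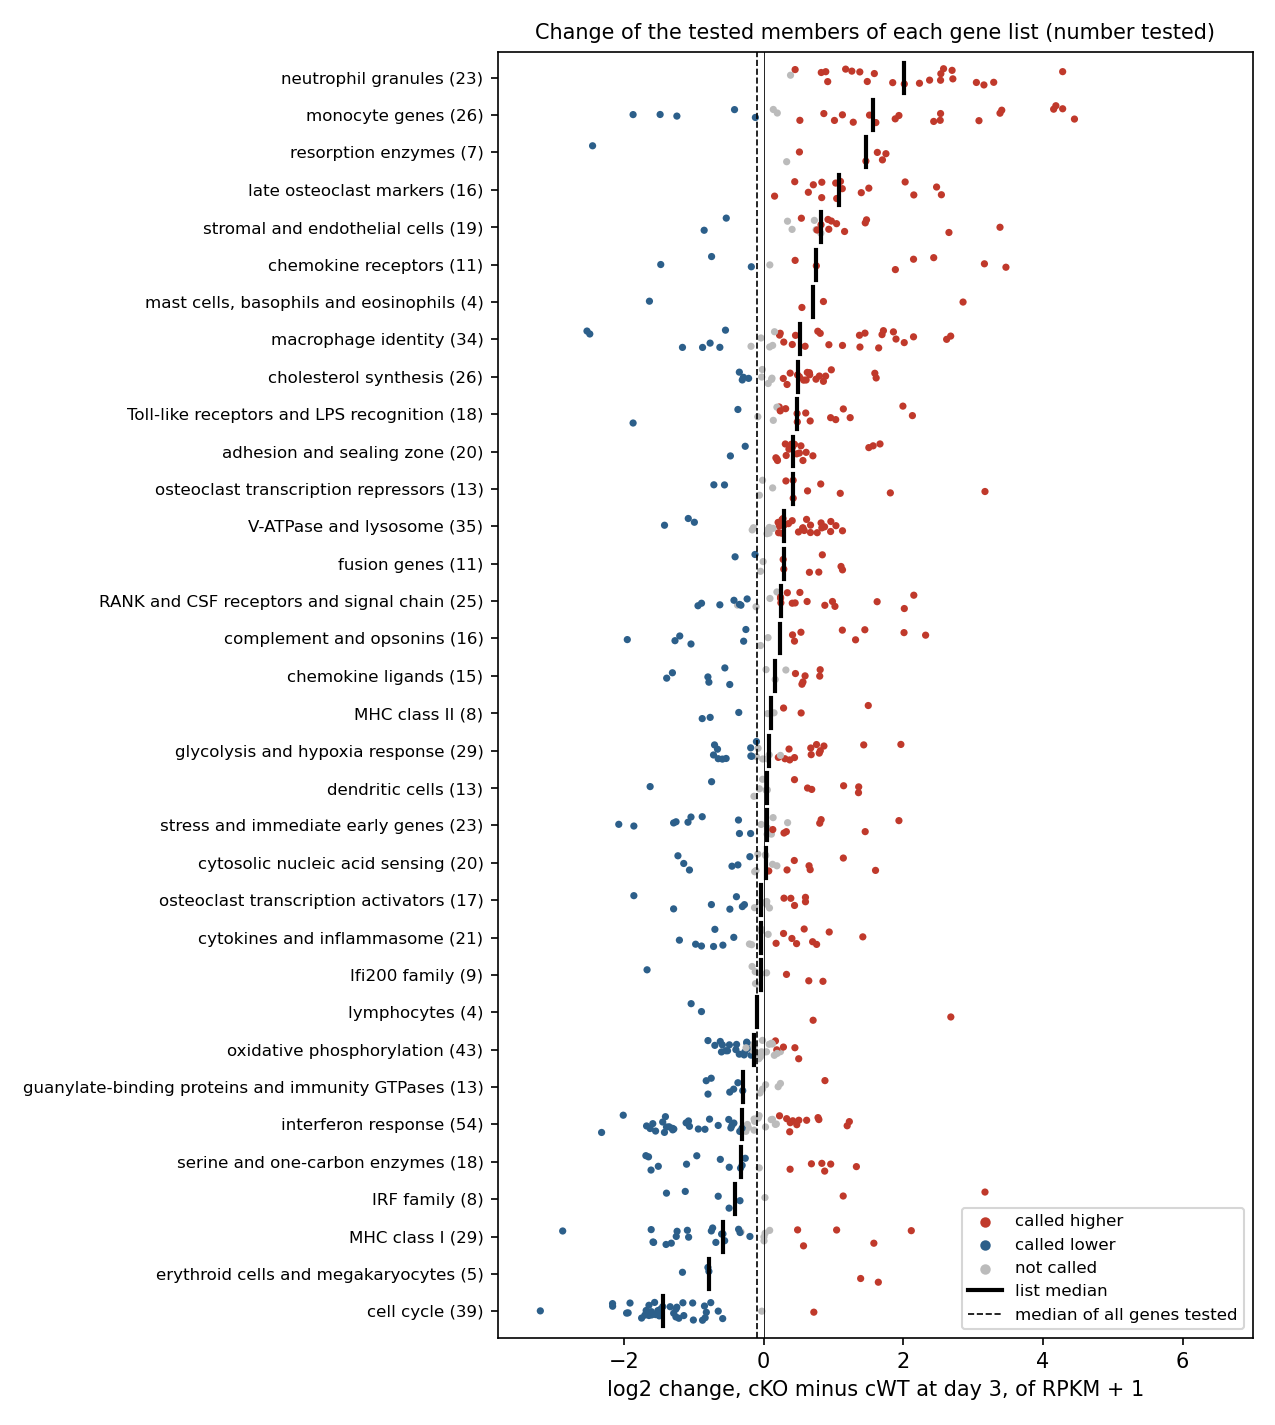
Log2 change of RPKM + 1 (cKO minus cWT at day 3) for each tested member of 34 gene lists, a point per gene, with list medians as bars and the median of all tested genes (-0.10) as a dashed line. The medians of the neutrophil granule, monocyte, resorption enzyme and late osteoclast lists lie farthest to the right, cell cycle genes to the left (median -1.44), and interferon and complement lists on both sides.

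Macrophage genes were mixed. Mertk, a receptor for dying cells, measured 8.87, 9.45 and 7.03 RPKM in cKO and 1.01, 1.70 and 1.32 in cWT (2.01 ± 0.14). Axl, its relative with the same ligand family, measured 2.54, 2.31 and 4.93 RPKM in cKO and 19.1, 22.8 and 26.9 in cWT (-2.53 ± 0.17). Gas6, the ligand of both, measured 30.9, 31.3 and 28.5 RPKM in cKO and 6.13, 8.03 and 6.21 in cWT (2.01 ± 0.10). None of the 3 overlapped between labels, which for Axl was a condition of the ranking. Of 34 tested macrophage identity genes 22 were called higher, 13 of them at least 2-fold, and 7 lower, with a median of 0.53. Fcrls (2.68), Slc40a1, the iron exporter ferroportin (2.62), Siglec1 (1.37) and the mannose receptor gene Mrc1 (1.72) rose, while Folr2 (-2.49) and Apoe (-1.16) fell. Complement was divided as well, with 8 of 16 called higher and 6 lower. C3, the central complement component, measured 156, 165 and 152 RPKM in cKO and 21.9, 37.1 and 35.7 in cWT (2.32 ± 0.14), and the 3 chains of C1q fell together, C1qa from a cWT range of 28.9 to 39.4 RPKM to 6.35 to 10.8 in cKO (-1.95 ± 0.18).

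Genes that sense pathogens were called higher more often than lower. Of 18 Toll-like receptor and LPS recognition genes 13 were called higher, 5 of them at least 2-fold, and 2 lower, with a median of 0.48. Tlr8, an endosomal RNA sensor, measured 14.2, 13.7 and 11.9 RPKM in cKO and 1.80, 3.17 and 2.90 in cWT (1.995 ± 0.12). Lbp, which presents LPS, measured 5.17, 5.91 and 5.91 RPKM in cKO and 0.490, 0.480 and 0.590 in cWT (2.13 ± 0.08). Both were apart in every library. Among the sensors of nucleic acid in the cytosol and their kinases 7 of 20 were called higher and 6 lower, with Ikbke up by 1.60 and Mb21d1, which encodes cGAS, down by 1.14 ± 0.07. Nlrp3, the inflammasome sensor, rose by 1.42 ± 0.08 and Gsdmd, the pore protein gasdermin D, fell by 1.21 ± 0.06, in a list of cytokine and inflammasome genes where 9 of 21 were called higher and 7 lower. In chemokine ligands 6 of 15 were called higher and 6 lower, and Cxcl16 (-1.30) and Ccl5 (-1.39) showed the largest falls.

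Lipid genes were called higher more often than lower, while the counts of energy genes moved with the scaling. Of 43 oxidative phosphorylation genes 17 were called lower and 5 higher, with a median of -0.14. After quantile scaling 24 were called higher and 9 lower (median 0.17), and with the letter term 0 were called lower and 9 higher. Without cWT replicate 1 the counts were 11 lower and 9 higher, and without cKO replicate 2 they were 11 and 5, so no direction is given for this list. In the glycolysis and hypoxia list 13 of 29 were called higher and 10 lower, which became 16 and 4 after quantile scaling and 12 and 6 with the letter term. Ndrg1, a hypoxia-induced gene, measured 19.7, 20.4 and 21.4 RPKM in cKO and 4.41, 4.49 and 4.59 in cWT (1.97 ± 0.05), and Vegfa rose by 1.43 ± 0.08. Cholesterol genes rose in 17 of 26 and fell in 4, with a median of 0.50. Insig1, which senses sterol, measured 42.8, 45.3 and 46.2 RPKM in cKO and 13.01, 15.6 and 13.4 in cWT (1.61 ± 0.05). Tfrc, the transferrin receptor that brings iron into the cell, measured 337, 345 and 357 RPKM in cKO and 99.9, 127 and 106 in cWT (1.64 ± 0.09).

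Markers of other cell types were looked at over their whole lists. Dendritic cell genes were called higher in 6 of 13 and lower in 2, and the defining genes Xcr1, Clec9a and Flt3 stayed under 1 RPKM on average in both groups. In the lymphocyte list 4 of 26 genes reached the filter. Of these, 2 were called higher and 2 lower. Cd4, which macrophages of some species also express, was higher in cKO by 2.68 ± 0.14. Blnk (-1.04 ± 0.07) and Il7r (-0.89 ± 0.11) were lower, and Cd3e was near 0. In the erythroid and megakaryocyte list 5 of 19 reached the filter, 2 called higher and 3 lower, and the globin genes were at or near 0. In the mast cell, basophil and eosinophil list 4 of 20 reached it, 3 called higher and 1 lower. Ear2 rose by 2.86 ± 0.15, Prg2 fell by 1.63 ± 0.23, and Cpa3 and Fcer1a were near 0. The summed levels of the lymphocyte list were 62.3 to 67.9 RPKM in cWT and 39.6 to 45.9 in cKO. Those of the erythroid list, of which Tfrc was the larger part, were 173 to 193 and 385 to 398, those of the mast cell list 10.3 to 14.7 and 19.8 to 23.3, and those of the dendritic cell list 1226 to 1475 and 1273 to 1355. The part of such cells in the results was not tested.

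Stromal genes did not follow the label alone. Col1a1, the main bone collagen, measured 5.11, 5.36 and 21.9 RPKM in cKO and 3.15, 17.2 and 1.47 in cWT. The high values belonged to cKO replicate 3 and cWT replicate 2, the groups overlapped, and the gene was not called (0.75 ± 0.55, adjusted p = 0.215). Col1a2 and Col3a1 showed the same pair of high libraries. Fn1, fibronectin, which macrophages make as well, measured 34.8, 40.4 and 47.6 RPKM in cKO and 1.92, 8.99 and 1.17 in cWT and was called higher (3.38 ± 0.42, adjusted p = 3.48e-08), and Thbs1, thrombospondin, rose by 2.65 ± 0.23. Of 19 tested members 12 were called higher and 2 lower. The number called higher was 7 without cKO replicate 3, 8 without cWT replicate 3, 16 without cWT replicate 2, 12 with both of the high libraries left out and 4 with the letter term. The summed level of the list was 163 to 298 RPKM in cWT and 437 to 670 in cKO. With both high libraries left out 37 genes of the cell cycle list were called lower, 22 of the granule list higher, 16 of the late osteoclast list higher and 17 of the MHC class I list lower, and 8351 genes were called in all.

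**Figure D3:**
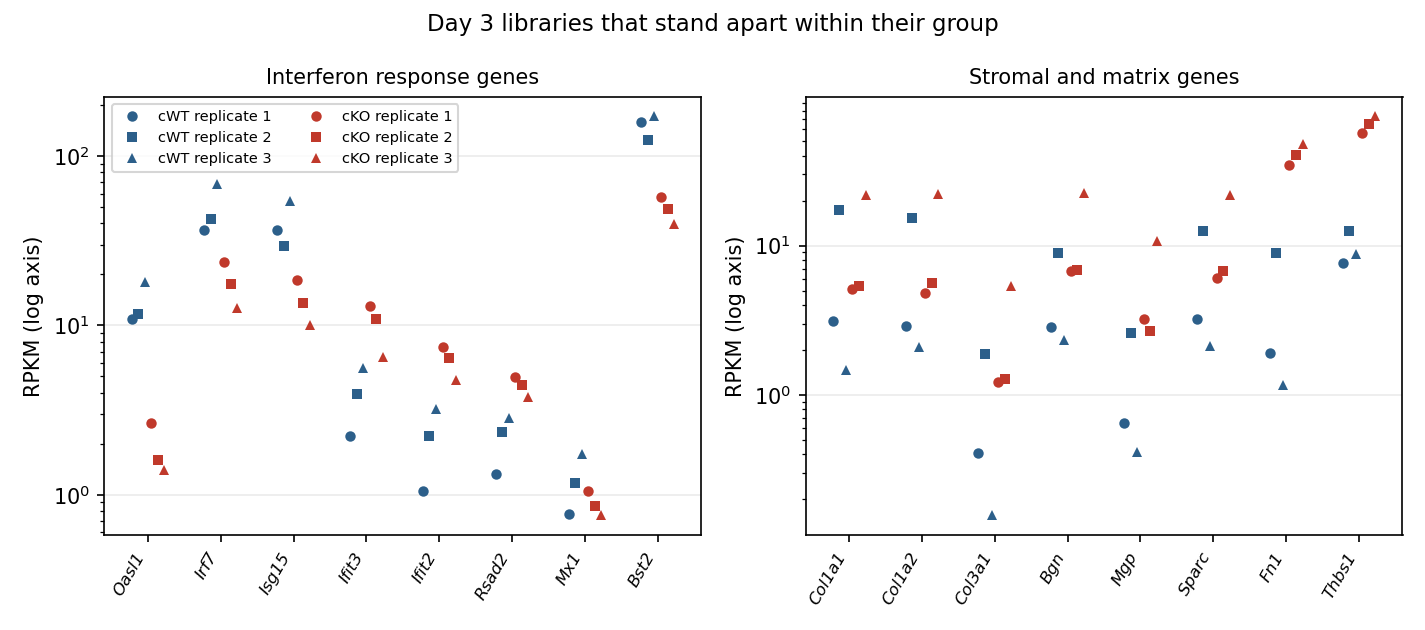
RPKM on a log axis of 8 interferon response genes (left) and 8 stromal and matrix genes (right) in each day 3 library, coloured by label and shaped by replicate. cWT replicate 3 lies above and cKO replicate 3 below the rest of its label in Oasl1 and Irf7, while cKO replicate 3 and cWT replicate 2 hold the high collagen values (21.9 and 17.2 RPKM of Col1a1).

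The gKO and gWT cells give a comparison at the same day that shares no library with the c pair. Across the 10817 genes the log2 changes correlated at Pearson r = 0.82 and Spearman rho = 0.79, as a description over genes, which are not independent. In the g pair 8802 of the 10817 genes were called. Over all tested genes, 6617 were called in both pairs in the same direction and 607 in opposite directions. The counts that follow are best read against these. Of the 610 genes at least 2-fold higher in the c pair 557 were called higher in the g pair, 6 were called lower and 47 were not called. Of the 793 at least 2-fold lower 772 were called lower, 4 higher and 17 not called. The genes at least 2-fold higher in both were 69.7% of the c list and 53.9% of the g list, and those at least 2-fold lower in both 79.6% and 49.0%. The size of the change still differed by test for 56.6% of the genes, and this count was 2970 of 10817 with the letter term. All g libraries have names starting with u and Xist near 0, so letter, sex pattern and genotype pair coincide in this contrast.

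C1q showed the widest gap between the pairs. C1qb was 42.1 to 52.9 RPKM in cWT and 17.1 to 24.3 in cKO, and 170 ± 1.33 in gWT and 3.60 ± 0.22 in gKO (mean ± SD, n = 3; log2 change -5.22). The difference of the changes was 4.02 ± 0.22 (adjusted p = 1.44e-14), and C1qa and C1qc differed by 3.38 and 3.36. Ifit3 rose in the c pair and fell in the g pair (1.197 and -1.85). Coq8a, a mitochondrial kinase-like protein of coenzyme Q synthesis, measured 96.1, 89.97 and 97.9 RPKM in cKO and 39.8, 48.4 and 42.9 in cWT in the c pair and 10.9 ± 0.69 against 126 ± 7.22 in gWT and gKO. Its change was thus larger in the g pair (1.10 and 3.42, difference -2.32 ± 0.10). Irf8 itself was higher in gKO by 1.16, 2.01 ± 0.16 less than in the c pair. For Ctsk the difference of the changes was not called (-0.71 ± 0.31, adjusted p = 0.0508), while Acp5, Mmp9, Calcr and Oscar changed less in the c pair, by 0.70 to 1.19 on the log2 scale.

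**Figure D4:**
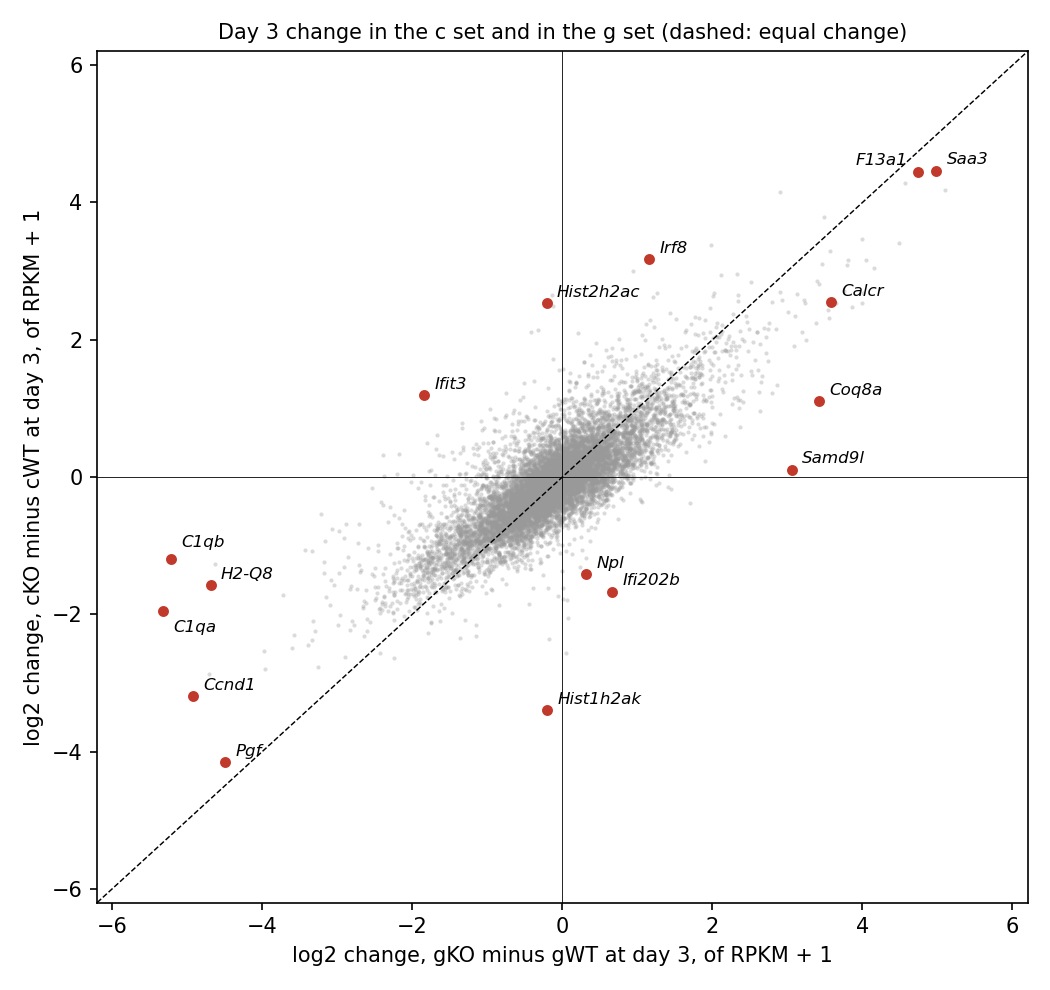
Log2 change of RPKM + 1 at day 3 in the c pair (vertical) against the g pair (horizontal), a point per tested gene, with the dashed line at equal change. Most genes lie along a common slope (r = 0.82), and C1qa, C1qb, H2-Q8 and Ifit3 lie above the line while Samd9l, Coq8a and Hist1h2ak lie below it.

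The same labels at day 0 show which of these differences were already there. A fixed offset of the name letter would cancel in the difference between days, because cWT is s and cKO is t at both. Of the 610 genes at least 2-fold higher at day 3, 325 were called higher at day 0, 135 were called lower and 150 were not called. Of the 793 at least 2-fold lower, 200 were called lower, 371 were called higher and 222 were not called. The shares of all tested genes called higher and lower at day 0 are not reported here. Whether these counts exceed those shares can therefore not be read from them. The change differed between days for 74.6% of the genes. Granule genes already differed between the labels at day 0, with a median log2 change of 2.38 over the list at day 0 and 2.02 at day 3. Between days the change differed for 15 of 23 tested members, against 74.6% of all tested genes. S100a8 averaged 7386 ± 226 RPKM in cKO and 851 ± 17.1 in cWT at day 0, and its change did not differ between days (0.04 ± 0.28, adjusted p = 0.905).

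The osteoclast genes differed in whether they were already higher at day 0. Ctsk averaged 14.2 ± 5.06 RPKM in cKO and 23.4 ± 2.94 in cWT at day 0 (-0.73), and its change differed between days by 2.36 ± 0.31 (adjusted p = 6.85e-08). Calcr was under 0.2 RPKM in both labels at day 0, and its difference between days was 2.60 ± 0.18. The median of the late osteoclast list was -0.08 at day 0 and 1.07 at day 3. Mmp9 and Dcstamp were already higher in cKO at day 0, by 1.40 and 1.04, and their changes did not pass the test between days (adjusted p = 0.177 and 0.743). Atp6v0d2 was higher by 0.54 at day 0, and the median of the fusion list was 0.54 at day 0 and 0.29 at day 3. Csf1r went from lower at day 0 (-1.43) to higher at day 3, a difference of 2.42 ± 0.09. F13a1 went from 282 ± 15.2 to 2.42 ± 0.237 RPKM in cWT and from 247 ± 7.35 to 73.7 ± 4.61 in cKO. Ms4a4a fell by 4.998 on the log2 scale in cWT and rose by 2.003 in cKO.

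Ccnd1 and Myc ran the other way. Ccnd1 averaged 81.4 ± 2.54 RPKM in cKO and 41.6 ± 10.6 in cWT at day 0, and by day 3 it had fallen by 3.94 on the log2 scale in cKO with a change of 0.24 in cWT. Myc fell by 1.41 in cKO and rose by 1.78 in cWT. The median of the cell cycle list was 0.30 at day 0 and -1.44 at day 3. Pgf was under 0.2 RPKM in both labels at day 0 and rose by 5.30 in cWT and by 1.23 in cKO. For C1qa the day 0 difference was the larger, with 2.34 ± 0.27 RPKM in cKO and 183 ± 25.9 in cWT (-5.78), and for Hist1h2ak, a near-identical histone copy, it was equal at both days (-3.41 and -3.40).

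**Figure D5:**
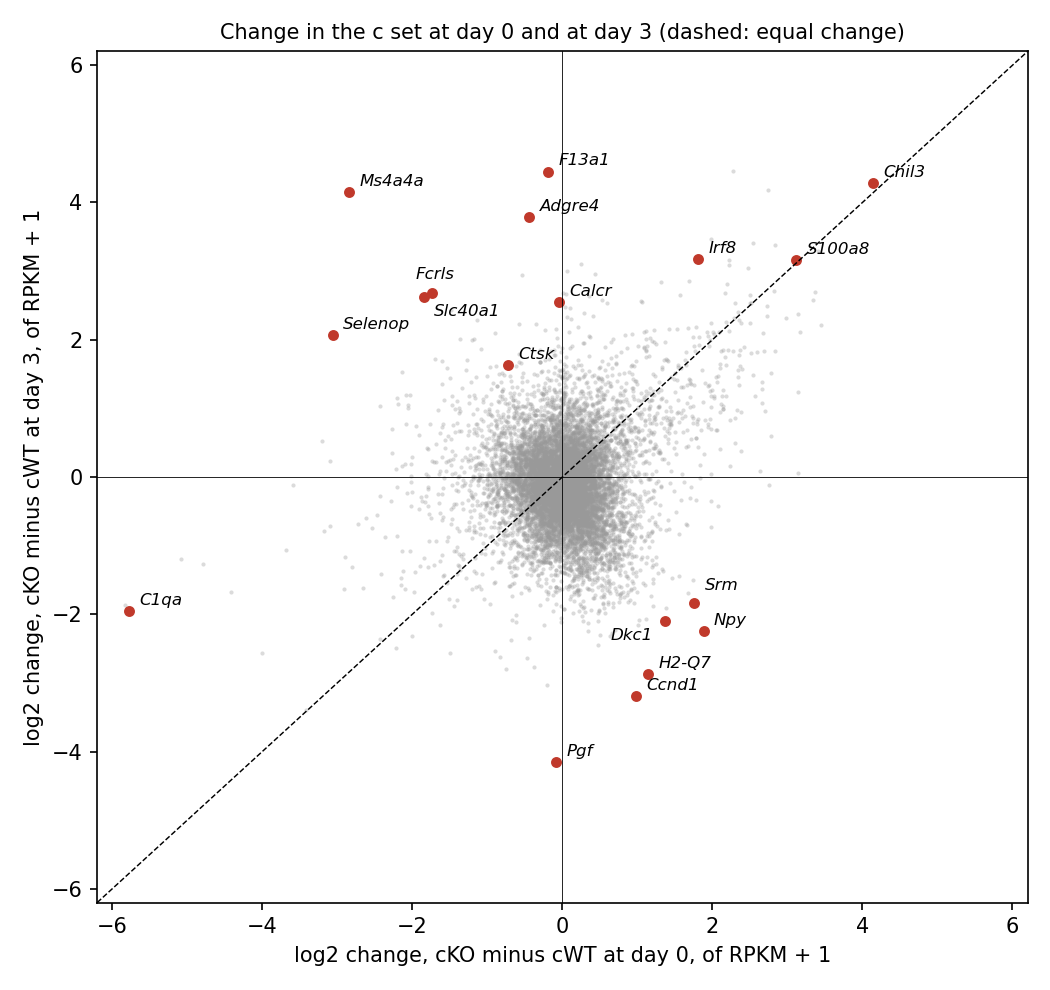
Log2 change of RPKM + 1 (cKO minus cWT) at day 3 (vertical) against day 0 (horizontal), a point per tested gene, with the dashed line at equal change. Chil3 and S100a8 lie on the line, Ctsk, Calcr and F13a1 near 0 or below it at day 0 and high at day 3, and Ccnd1, Npy, Srm and Dkc1 are higher at day 0 and lower at day 3.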

How the data were processed

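Per the file headers, the authors mapped reads with TopHat and computed RPKM per gene with Partek. The submitters' processing notes name TopHat2 2.1.0, bcl2fastq 2.17.1, CASAVA 1.8.4, Partek and deepTools, with the build mm9. The annotation, like the counting settings and the strand, is not given in the sources used here. Alignment counts per library are those deposited in the authors' sample sheet, and RPKM already divides by depth. The ratio printed for Irf8 is the authors' deposited ratio. On the log2 scale their deposited ratios of cKO to cWT match the difference of averaged log2(RPKM + 0.1) within 1.3e-05.

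RPKM values were used as deposited, as log2(RPKM + 1), over genes with at least 1 RPKM in at least 3 of the 6 libraries. One limma model (3.58.1, R 4.3.3, trend and robust moderation) with 12 groups took in all 36 libraries, with contrasts for cKO against cWT, for its difference from gKO against gWT, and for its difference from day 0. P-values were adjusted by Benjamini-Hochberg over all 10817 tested genes and called under 0.05. The median residual SD was 0.085 on 24 degrees of freedom. Tested on simulated data of this comparison with 10817 genes, the fit called 28 of 50 genes changed 1.2-fold, 50 of 50 at each of 1.5-fold, 2-fold and 4-fold, and 6 of 10617 unchanged genes. The simulated noise was independent between genes and libraries, without an effect of name letter or depth, and most genes were unchanged. These counts therefore do not measure the error rate of the real comparison.

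Genes were named by rule: the 12 largest rises and 12 largest falls among non-overlapping genes that averaged 5 RPKM or more on the higher side, 4 members of each list, every regulator above 1 RPKM, and the 6 highest and 6 lowest of each difference. The ranking skipped predicted models, small RNAs and sex-linked or mitochondrial genes. Other list members named were chosen after their values were seen. The genes in the 35 lists, the comparisons and the rules were chosen with earlier results of these data known. Of the listed symbols, 4 had no row in the table. Promoter windows come from RefSeq (GRCm38.p6), matched by symbol, and no coordinates of the authors' build were used. Alternatives were another pseudocount, no filter, a filter over 36 libraries, quantile scaling, the 6 libraries alone, a replicate block, a term for the name letter and leaving out each library. Leaving out both libraries high in stromal genes was added after seeing the data. Tables and figures used pandas 2.3.3, matplotlib 3.10.9 and numpy 2.4.6 under Python 3.11.15. Results for some genes are not reported here.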

Additional observations from a re-analysis of the deposited data

Results flagged for a closer look

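The change between the labels differed from that of the g pair at day 3 for 6127 genes by limma's test of the difference. The highest of the ranked differences on the log2 scale (c pair minus g pair) were C1qb (4.02), C1qa (3.38), C1qc (3.36), H2-Q8 (3.11), Ifit3 (3.05) and Hist2h2ac (2.74). The lowest were Hist1h2ak (-3.20), Samd9l (-2.95), Ifi202b (-2.33), Coq8a (-2.32), Pira1 (-2.07) and Npl (-1.73). Hist2h2ac, Hist1h2ak, H2-Q8 and Pira1 belong to families of near-identical copies, and the Pira1 difference was not called with the letter term (-1.35, adjusted p = 0.0825). The name letter u and Xist near 0 coincide with the g pair, and their part in these differences was not tested. Samd9l was 0.166 ± 0.0836 RPKM in gWT and 8.72 ± 0.77 in gKO (SD, n = 3), against 12.2 to 20.2 in cWT and 15.5 to 19.6 in cKO.

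Within the c pair the change at day 3 differed from that at day 0 for 8073 genes. The highest ranked differences (day 3 minus day 0) were Ms4a4a (7.001), the selenium carrier gene Selenop (5.13), F13a1 (4.64), Slc40a1 (4.47), Fcrls (4.42) and Adgre4 (4.23). The lowest were Ccnd1 (-4.18), the neuropeptide gene Npy (-4.13), Pgf (-4.06), H2-Q7 (-4.01) and Srm (-3.59) and Dkc1 (-3.47), which serve polyamine synthesis and ribosomal RNA modification. Selenop was 454 ± 74.4 RPKM in cWT and 53.0 ± 2.12 in cKO at day 0, and 21.4 to 29.4 in cWT and 93.9 to 115.6 in cKO at day 3.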

How the results depend on the processing

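The number of genes called between the labels ran from 6349 (name letter term) to 10045 (no filter, with 24950 genes in the test), against 8587 as reported. Leaving out each library gave 8154 to 8582, with 524 to 721 at least 2-fold higher and 702 to 930 at least 2-fold lower. The genes differing between the c and the g pair fell to 2970 with the letter term, and the cause was not tested; without each library in turn they numbered 5469 to 6440. Those differing between days numbered 7849 to 8152 without each library and up to 9837 without the filter. The letter term cancels between days and was not run there.

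Quantile scaling turned Cd44 (0.15), Cd47 (0.19), Cd9 (0.21), Csf2rb (0.0085), Jdp2 (0.00032), Relb (0.17) and Spi1 (0.072) from lower to higher in cKO, and the letter term did so for H2-Ab1 (0.041), in each case a small log2 change.

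Replicate numbers did not pair the libraries, since the deviations of same-numbered libraries correlated at 0.019, -0.056 and -0.394. With a replicate block 8691 genes were called. RPKM gives no counts from which to model counting error, the cKO libraries had the lower depth, and low genes are understated by the pseudocount.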
